A study of Mus musculus with 12 samples.

Results

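The genes described here are 10 hypoxia response genes that lie outside the glycolytic pathway, namely Hif1a, Egln1, Egln3, Bnip3, Bnip3l, Ddit4, Vegfa, Slc2a1, Slc16a3 and Pdk1. They were taken by symbol, 1 row each, from a table of 37477 gene rows, and all 10 were among the 8739 rows that passed the filter on low values. The table comes from RNA sequencing of CCE cells, a mouse embryonic stem cell line, grown in serum with LIF and transduced with pLKO.1-puro lentivirus that carried either an shRNA against TUNA, a long intergenic noncoding RNA, or a control shRNA. The groups were TUNA shRNA at day 2, at day 4 and at day 6 after transduction, and control shRNA at day 2, with 3 libraries each. All 4 groups were kept in 1 µg/ml puromycin from 1 day after transduction, so that cells without the vector were selected against in every group. Control libraries exist here for day 2 only, and a comparison of day 4 or day 6 with the control therefore spans both the shRNA and the time since transduction, which cannot be told apart. The labels do not say whether the libraries of a group came from separate transductions, so the spread between them may be technical.

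Cells sense oxygen through the prolyl hydroxylases, among them the products of Egln1 and Egln3, which mark the alpha subunits of the hypoxia-inducible factors (HIFs) for ubiquitination by the VHL complex and for degradation. When oxygen is low the mark is not made, and HIF-1α, the product of Hif1a, which is regulated mainly through the stability of the protein, accumulates and with its partner ARNT binds the core motif ACGTG or GCGTG near its target genes. Targets outside glycolysis include the hydroxylases themselves, mitochondrial receptors for autophagy (Bnip3, Bnip3l), an inhibitor of mTORC1 signalling (Ddit4), an angiogenic growth factor (Vegfa), carriers of glucose and lactate (Slc2a1, Slc16a3) and a kinase that keeps pyruvate from oxidation in the mitochondrion (Pdk1). Several of these genes also answer to signals other than oxygen.

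The libraries held 3522217 to 5652551 reads in gene rows, of which 60.4% to 76.9% fell in 3 rows (Rnu3a, Tex14 and LOC100503663), leaving 936445 to 2024787 reads for all other genes. In these libraries 1 read was worth 0.65 to 1.42 normalized counts, and a normalized count below about 5 therefore stands for a few reads. Read numbers are estimates, and a value listed at 0 stands for at most 1 normalized count. The row of TUNA (2810011L19Rik) was above 0 in 0 of 12 libraries, so that the depletion itself could not be checked. All 9 pluripotency markers looked at were measured, with summed levels of 2544.2 to 2719.1 normalized counts in TUNA shRNA libraries of day 2, 2436.3 to 2636.4 in those of day 4 and 1787.9 to 2226.2 in those of day 6, and 2824.2 to 3071.7 in controls. The markers did not move as 1. At day 4 the means of Sox2 (617 against 551), Tdgf1 (367 against 293), Dppa5a (178 against 128) and Klf4 (28.7 against 23.5) were above the controls. Those of Pou5f1, Nanog, Zfp42 and Esrrb were below, and Utf1 was level. At day 6 Utf1 alone was above (15.8 against 9.21).

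At day 4 of TUNA shRNA 7 of the 10 genes were higher than in the control libraries and none was lower: Egln3, Bnip3, Ddit4, Slc16a3, Egln1, Slc2a1 and Pdk1 (limma, Benjamini-Hochberg adjusted p under 0.05, here and below the threshold for a call). In that comparison 6.99% of all rows tested were called higher and 7.76% lower (14.7% in either direction). The median log2 change of the 10 genes was 1.32, against -0.01 over all rows tested. Egln3 passed the filter only through its day 4 libraries; without it 6 of 9 genes were called higher, with a median of 0.94. At day 2 none of the 10 was called, with limma or with limma-voom, where limma gave 0.412% of all rows called higher and 0.549% lower (0.961% in either direction). At day 6 Pdk1 was called higher and Vegfa lower, with 3.07% of all rows called higher and 3.15% lower (6.21% in either direction). These are bulk libraries, in which fewer cells of a type and less RNA per cell cannot be told apart. The 3 comparisons share the same 3 control libraries.

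**Figure D1:**
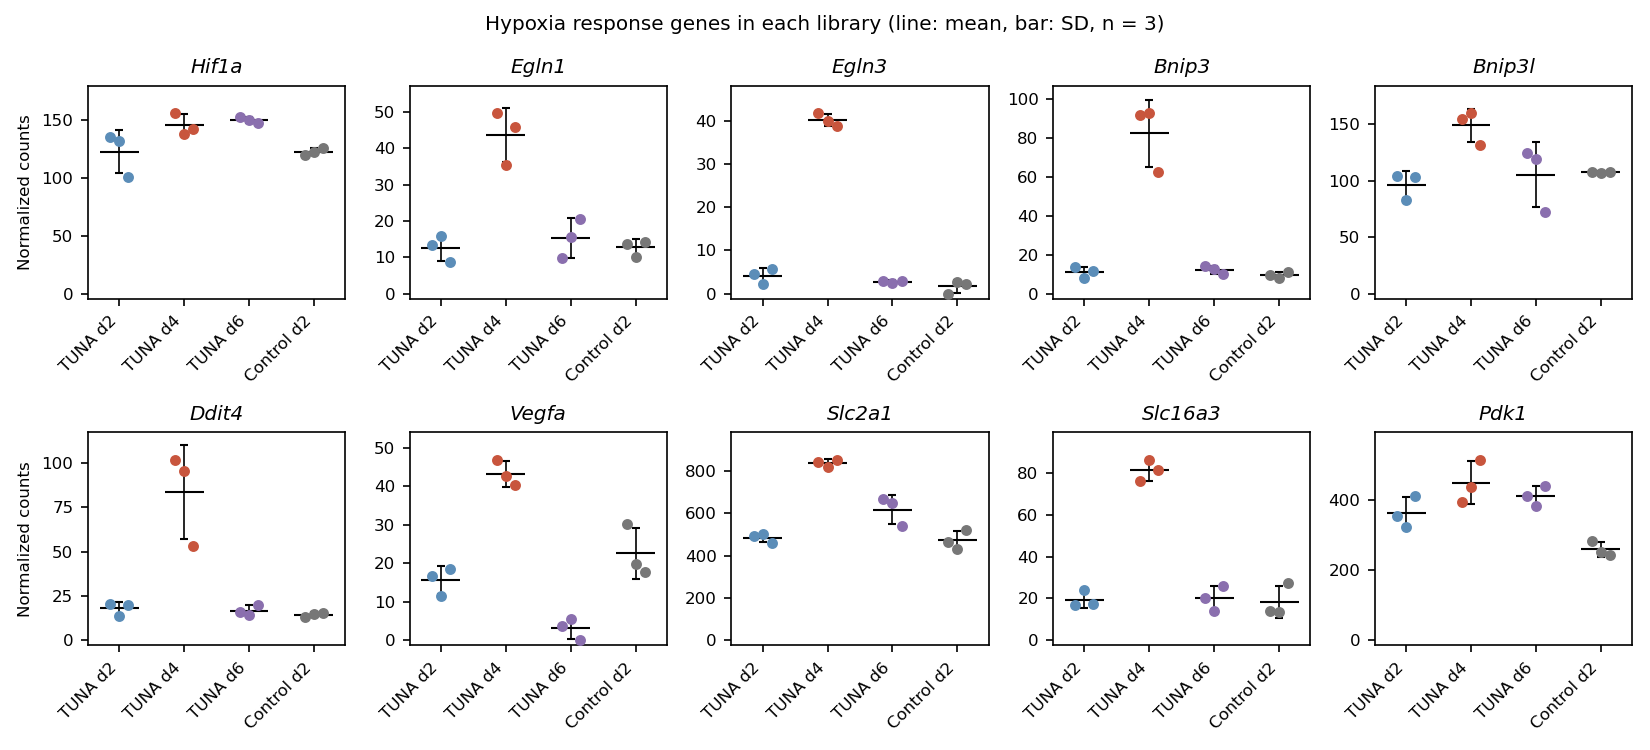
Normalized counts (y axis, linear scale, a separate range for each gene) of the 10 genes in each of the 12 libraries, by group (x axis); each point is 1 library, each horizontal line a group mean and each vertical bar 1 SD (n = 3). In 8 of the 10 panels, those other than Hif1a and Pdk1, the 3 day 4 libraries lie above all 9 others.

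Promoter sequences are shown for the 4 genes with the largest log2 change at day 4 from the control (Egln3, Bnip3, Ddit4, Slc16a3), and, for contrast, for Hif1a, whose transcript was not called in any comparison. Each is the 250 bases before the annotated start, 5′ to 3′ in the direction of the gene, from RefSeq on GRCm38.p6, with every ACGTG or GCGTG in capitals, whether it reads on the printed strand or on the other one (where it appears as CACGT or CACGC).
Egln3, chr12:54203875-54204124, minus strand: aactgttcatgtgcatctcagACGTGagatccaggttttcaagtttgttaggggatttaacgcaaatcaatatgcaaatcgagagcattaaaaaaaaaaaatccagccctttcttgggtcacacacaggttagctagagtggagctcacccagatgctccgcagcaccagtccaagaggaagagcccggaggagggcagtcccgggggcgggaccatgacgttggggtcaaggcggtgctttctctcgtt
Bnip3, chr7:138909507-138909756, minus strand: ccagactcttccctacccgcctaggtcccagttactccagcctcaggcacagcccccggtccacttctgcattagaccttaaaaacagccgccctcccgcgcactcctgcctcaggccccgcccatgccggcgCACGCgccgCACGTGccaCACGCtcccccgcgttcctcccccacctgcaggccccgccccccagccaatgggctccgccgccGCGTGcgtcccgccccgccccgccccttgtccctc
Ddit4, chr10:59951771-59952020, minus strand: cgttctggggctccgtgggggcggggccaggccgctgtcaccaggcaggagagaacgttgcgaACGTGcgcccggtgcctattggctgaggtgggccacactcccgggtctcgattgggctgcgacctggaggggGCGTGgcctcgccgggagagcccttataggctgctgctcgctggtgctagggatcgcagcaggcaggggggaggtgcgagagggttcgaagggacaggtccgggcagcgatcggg
Slc16a3, chr11:120948817-120949066, plus strand: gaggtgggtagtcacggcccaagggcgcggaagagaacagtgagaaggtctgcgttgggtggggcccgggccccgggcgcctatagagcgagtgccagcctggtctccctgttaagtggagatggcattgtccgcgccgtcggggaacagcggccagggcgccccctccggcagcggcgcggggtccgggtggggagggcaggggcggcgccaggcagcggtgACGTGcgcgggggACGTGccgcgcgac
Hif1a, chr12:73907617-73907866, plus strand: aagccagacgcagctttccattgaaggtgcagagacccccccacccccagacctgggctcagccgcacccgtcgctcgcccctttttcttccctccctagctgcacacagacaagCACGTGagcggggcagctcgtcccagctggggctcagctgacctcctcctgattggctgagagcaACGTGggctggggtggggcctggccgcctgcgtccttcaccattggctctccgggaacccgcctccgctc
Of the 10 genes, 9 matched an entry of the promoter table, all but Bnip3l, with 11 entries in all. ACGTG occurred on either strand in 8 of the 11 entries (72.7%), in 23.4% of the 7164 entries of rows tested and in 16.6% of all 32851 entries. GCGTG occurred in 6 of the 11 entries (54.5%), in 47.5% of those of rows tested and in 28.2% of all entries. The upstream entry of Vegfa (chr17:46032378-46032627, minus strand) held 0 matches. Its matches, counted for both motifs, lie in a second entry downstream of that one (chr17:46025164-46025413). The genes were chosen as hypoxia response genes, and a difference between these shares was not tested. The Hif1a promoter held 3 matches of ACGTG, 2 of them the strands of 1 CACGTG, and the Egln3 promoter 1. A link between the matches and the log2 changes was not tested. CACGTG reads as ACGTG on both strands and counts as 2 matches. A match is a run of letters and not a measured site, and binding was not measured in these libraries.

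Hif1a, which encodes the oxygen-regulated subunit of HIF-1, held 135, 132 and 101 normalized counts at day 2, 156, 138 and 142 at day 4, and 153, 150 and 147 at day 6 of TUNA shRNA, against 120, 122 and 126 in controls. The day 4 and day 6 libraries all lay above the controls, by little. The log2 change from the control was 0.24 ± 0.15 at day 4 (adjusted p 0.298) and 0.29 ± 0.15 at day 6 (adjusted p 0.302; ± is a standard error here and for every log2 change below). Hif1a was the 1 gene of the 10 whose highest group mean was not at day 4.

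Both oxygen-sensing hydroxylases among the 10 genes rose at day 4. Egln2, a relative outside the 10, was not called there (log2 change from the control -0.90 ± 0.35, adjusted p 0.0869). Egln1 (PHD2), the main hydroxylase of HIF-1α in most cells, had 13.3, 15.8 and 8.55 normalized counts at day 2, 49.7, 35.3 and 45.8 at day 4, and 9.76, 15.5 and 20.6 at day 6 of TUNA shRNA, against 13.7, 10.1 and 14.3 in controls. The day 4 libraries stood clear of the other 9, which overlapped among themselves. Its day 4 mean was 3.43 times that of the controls (log2 change 1.70 ± 0.31, adjusted p 0.00146). Egln3 (PHD3), a hydroxylase that is itself a strongly induced HIF target in many cell types, had 4.48, 2.27 and 5.7 normalized counts at day 2, 41.8, 39.9 and 38.9 at day 4, and 2.99, 2.34 and 2.84 at day 6, against 0, 2.76 and 2.18 in controls. Outside day 4 these values correspond to at most 4 reads a library, and 1 control library is listed at 0. Its day 4 libraries lay close together at 40.2 ± 1.51 (SD, n = 3), and the log2 change from the control was 4.17 ± 0.53 (adjusted p 9.14e-05). Egln3 passed the filter on low values only through its day 4 libraries, so that a difference at day 4 was a condition of its being tested. Its fold, 24.4 by the ratio of means, rests on a handful of control reads. Without the control library listed at 0 the log2 change was 3.57.

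Of the mitochondrial receptors Bnip3 rose at day 4, and Bnip3l was not called there. BNIP3 and BNIP3L (NIX) sit on the outer mitochondrial membrane and recruit autophagosomes to it. Bnip3 had 13.4, 7.95 and 11.4 normalized counts at day 2, 91.9, 92.7 and 62.6 at day 4, and 14.1, 12.5 and 9.78 at day 6 of TUNA shRNA, against 9.58, 8.2 and 11 in controls. The lowest day 4 library was far above the highest of the other 9. The day 4 mean was 8.59 times the control mean (log2 change 2.96 ± 0.28, adjusted p 6.91e-06). Bnip3l had 104, 82.9 and 103 normalized counts at day 2, 155, 160 and 132 at day 4, and 125, 119 and 72.1 at day 6 of TUNA shRNA, against 108, 107 and 108 in controls. The day 4 libraries again lay above all others, but the log2 change from the control was 0.46 ± 0.19 and was not called (adjusted p 0.119).

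Ddit4 (REDD1), which acts on the TSC complex to restrain mTORC1, had 20.1, 13.6 and 19.9 normalized counts at day 2, 102, 95.7 and 53.3 at day 4, and 15.8, 14 and 19.9 at day 6 of TUNA shRNA, against 12.9, 14.7 and 15.4 in controls. All day 4 libraries were above all others, with the third of them well under the other two. The day 4 mean was 5.82 times the control mean (log2 change 2.41 ± 0.27, adjusted p 3.14e-05). The third library was also the lowest of the day 4 group for 5 of the 10 genes, while the second was lowest for 3 and the first for 2.

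Of the membrane carriers, Slc16a3 (MCT4), which exports lactate, rose most. It had 16.8, 23.8 and 17.1 normalized counts at day 2, 76.1, 86.5 and 81.7 at day 4, and 20.3, 14 and 25.7 at day 6 of TUNA shRNA, against 14, 13.5 and 27.2 in controls. The groups other than day 4 overlapped, and the day 4 mean was 4.47 times that of the controls (log2 change 2.17 ± 0.29, adjusted p 0.000107). Slc2a1 (GLUT1), the widely expressed glucose carrier, had 494, 504 and 459 normalized counts at day 2, 842, 820 and 855 at day 4, and 667, 647 and 540 at day 6, against 466, 429 and 521 in controls. Its day 6 libraries lay between, above all controls and below all day 4 libraries. The log2 change from the control was 0.83 ± 0.13 at day 4 (adjusted p 0.000479) and 0.39 ± 0.13 at day 6 (adjusted p 0.0965), the second of which was called only without the third day 6 library (adjusted p 0.0396).

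Pdk1, a kinase that inactivates pyruvate dehydrogenase, was above the controls on all 3 days. It had 355, 323 and 412 normalized counts at day 2, 395, 438 and 516 at day 4, and 413, 384 and 440 at day 6 of TUNA shRNA, against 282, 251 and 244 in controls. Every TUNA shRNA library was above every control library, and the 3 days overlapped. The log2 change from the control was 0.48 ± 0.14 at day 2 (adjusted p 0.142), 0.79 ± 0.14 at day 4 (adjusted p 0.00132) and 0.67 ± 0.14 at day 6 (adjusted p 0.00864). Pdk1 was the 1 gene of the 10 with an unadjusted p under 0.05 at day 2, where 1072 of all rows tested had one, and the 1 gene called higher at day 6.

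Vegfa, which encodes the angiogenic ligand VEGF-A, was the 1 gene of the 10 called lower in any comparison with the control. It had 16.8, 11.4 and 18.5 normalized counts at day 2, 47, 42.6 and 40.3 at day 4, and 3.75, 5.46 and 0 at day 6 of TUNA shRNA, against 30.2, 19.9 and 17.6 in controls. The day 4 libraries lay above and the day 6 libraries below those of every other group, and the day 6 values stand for about 5 and 7 reads and for a library listed at 0. The log2 change from the control was -2.88 ± 0.50 at day 6 (adjusted p 0.00196), and -2.05 without the day 6 library listed at 0. At day 4 it was 0.94 ± 0.50 and was not called (adjusted p 0.219), the controls spreading over 22.6 ± 6.69 (SD, n = 3). It was called with limma-voom on recovered reads (adjusted p 0.0272) and when only the groups compared were fitted (adjusted p 0.0292).

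**Figure D2:**
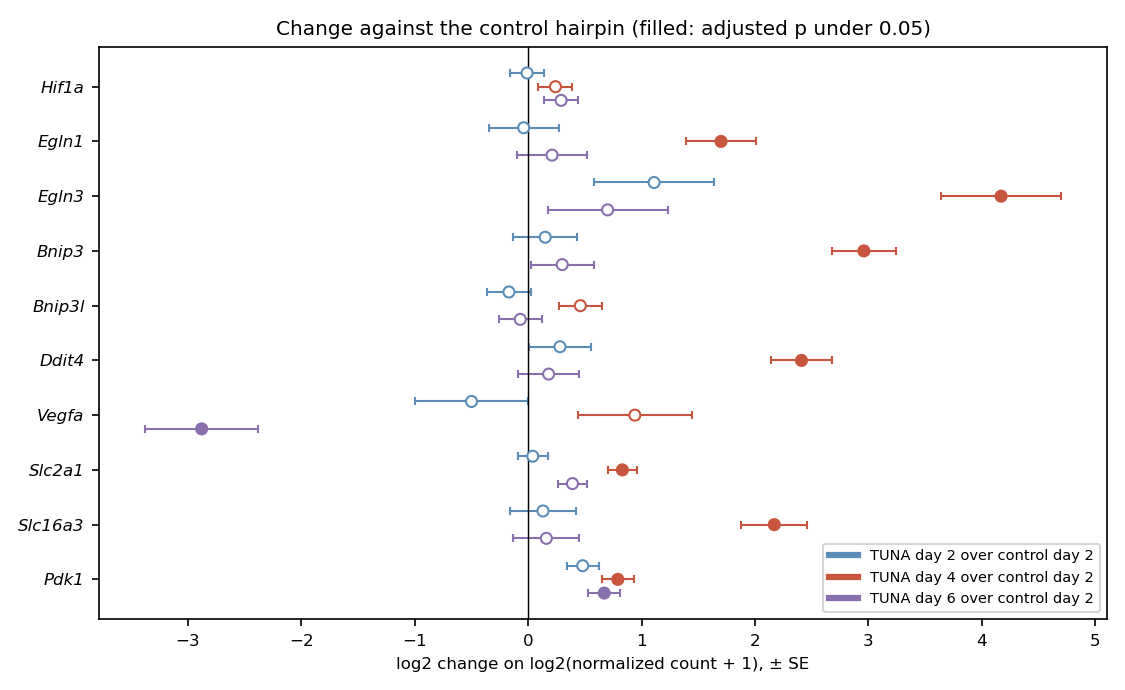
Log2 change of each gene (rows) from control shRNA at day 2 (x axis) for TUNA shRNA at days 2, 4 and 6, with bars of 1 standard error; filled points passed the adjusted p threshold of 0.05 and open points did not. Filled points number 0 at day 2, 7 at day 4 and 2 at day 6, and the day 6 point of Vegfa is the 1 filled point below 0.

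The overlap of the libraries was also counted, without a model. At day 4 all 3 libraries were above all 3 controls for 10 of the 10 genes, against 15.5% of all rows tested. Of these, Egln3 was tested only because of its day 4 libraries, so it adds nothing here, and the other 9 genes remain. At day 2 this held for 1 gene, Pdk1, and the reverse for 1, Bnip3l, against 9.76% and 10.3% of rows. At day 6 Hif1a, Slc2a1 and Pdk1 lay above the controls and Vegfa below, against 11.2% and 12.8% of rows. Of the 10 genes, 8 had their 3 day 4 libraries above all other 9 libraries, as had 375 of 8739 rows tested (4.29%); without Egln3 it was 7 of 9.

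The days of TUNA shRNA were also set against each other, with changes computed from these libraries and the spread estimated over all 12. From day 2 to day 4 the genes called were Egln1, Egln3, Bnip3, Ddit4, Slc2a1 and Slc16a3, 6 of 10 and all higher at day 4, where 3.27% of all rows tested were called higher and 4.38% lower (7.66% in either direction). Egln3 (3.06 ± 0.53) was tested only because of its day 4 libraries, and without it 5 of 9 genes were called. The log2 changes of those 5 ran from 0.79 ± 0.13 for Slc2a1 to 2.81 ± 0.28 for Bnip3. Bnip3l differed by 0.62 ± 0.19 (adjusted p 0.0564) and Vegfa by 1.44 ± 0.50 (adjusted p 0.0871), short of the threshold, and Pdk1 differed by 0.30 ± 0.14 (adjusted p 0.207). Vegfa was called with a pseudocount of 4, with limma-voom and with only the groups compared (adjusted p 0.0133, 0.0122 and 0.00507). Bnip3l was called with upper quartile scaling, with trimmed mean scaling, with only the groups compared and without the third day 4 library (adjusted p 0.0492, 0.0474, 0.0355 and 0.0456). From day 4 to day 6 the genes called were Egln1, Egln3, Bnip3, Ddit4, Vegfa and Slc16a3, 6 of 10 and all lower at day 6, where 2.64% of all rows were called higher and 2.94% lower (5.58% in either direction). The fall of Vegfa was the largest of the 10, at -3.82 ± 0.50 (adjusted p 0.000174; -3.00 without the day 6 library listed at 0). That of Egln3 was -3.47 ± 0.53 (adjusted p 0.000757), and without Egln3 5 of 9 genes were called lower at day 6 than at day 4. Slc2a1 differed by -0.45 ± 0.13 and fell short of the threshold (adjusted p 0.054; 0.0465 with limma-voom), and the call of Egln1 was lost without the first day 6 library (adjusted p 0.058). Between day 6 and day 2 Vegfa alone was called, at -2.38 ± 0.50 (adjusted p 0.0111; -1.55 without the day 6 library listed at 0), where 1.96% of all rows were called higher and 2.54% lower (4.5% in either direction). The call was lost without the first or the third day 2 library (adjusted p 0.0504 and 0.0568) and in the alternatives given at the close.

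Day 4 was also set against the mean of days 2 and 6, a contrast chosen with the day 4 peak of these data already known. Of the 10 genes 8 were called, all higher, where 3.44% of all rows tested were called higher and 4.31% lower (7.76% in either direction). Egln3 differed by 3.27 ± 0.46, but was tested only because of its day 4 libraries, and without it 7 of 9 genes were called. By the size of this difference among all 8739 rows, Bnip3 (2.74 ± 0.24) had rank 5, Vegfa (2.63 ± 0.43) rank 8, Ddit4 (2.18 ± 0.24) rank 12 and Slc16a3 (2.03 ± 0.25) rank 14. The value of Vegfa draws largely on its few reads at day 6 (-3.82 ± 0.50 from day 4 to day 6). From day 2 to day 4 Vegfa differed by 1.44 ± 0.50 and was not called (limma, adjusted p 0.0871). Egln1 (1.62 ± 0.27), Slc2a1 (0.62 ± 0.11) and Bnip3l (0.58 ± 0.17, adjusted p 0.0426) followed. The call of Bnip3l was lost in 8 of 20 alternative settings, among them leaving out any day 2 library or the first or second day 4 library (adjusted p 0.0602 to 0.169). Pdk1 (0.21 ± 0.12, adjusted p 0.326) and Hif1a (0.10 ± 0.13, adjusted p 0.689) were not called.

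**Figure D3:**
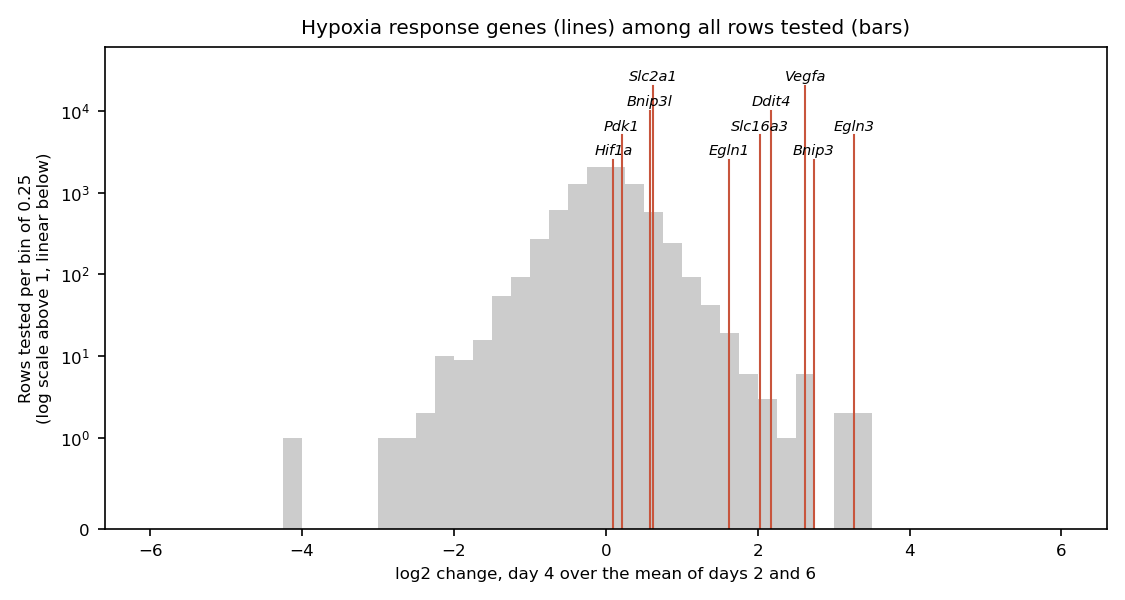
Distribution of the log2 change from the mean of TUNA shRNA days 2 and 6 to day 4 (x axis) over the 8739 rows tested (grey bars, bins of 0.25, y axis logarithmic above 1 and linear below), with the 10 genes as labelled vertical lines whose height has no meaning. Egln3, Bnip3, Vegfa, Ddit4, Slc16a3 and Egln1 lie in the sparse right tail, and Hif1a and Pdk1 near 0. The place of Vegfa draws largely on its few reads at day 6.

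Per kilobase of annotated exon, which allows levels to be set side by side across genes, Slc2a1 was the most abundant in every group, with 239 normalized counts per kb at day 4 of TUNA shRNA and 135 in controls. Pdk1 came next by the mean in both, at 57.8 ± 7.9 per kb at day 4 (SD, n = 3) and 33.3 in controls. At day 4 the level of Pdk1 overlapped that of Ddit4. Ddit4 reached 47.6 ± 15.0 per kb at day 4 (SD, n = 3), a level that overlapped that of Bnip3l (38.6 ± 3.83) and Bnip3 (36.4 ± 7.56), whereas in controls it had 8.18 per kb and Bnip3l 27.9. Hif1a, at 24.6 per kb on day 4 and 20.8 in controls, was above Bnip3 in controls (4.24 per kb) and below it at day 4. The order in controls was Slc2a1, Pdk1, Bnip3l, Hif1a, Ddit4, Vegfa, Bnip3, Egln1, Slc16a3 and Egln3, in which the levels of Vegfa (5.27 ± 1.56 per kb), Bnip3 (4.24 ± 0.618), Egln1 (3.53 ± 0.636) and Slc16a3 (3.42 ± 1.46) did not differ beyond their spread. Egln3 was the lowest of the 10 in controls, at 0.619 per kb, and at day 4, with 15.1 per kb, was level with Slc16a3 at 15.3 and above Egln1 at 12.1. Vegfa had the lowest mean at day 4, at 10.1 ± 0.787 per kb, and at day 6, at 0.716 ± 0.651 per kb (SD, n = 3 each). These levels overlapped those of Egln1 at day 4 (12.1 ± 2.06) and of Egln3 at day 6 (1.02 ± 0.129). Exon lengths are those of GENCODE M21 on GRCm38 and not of the build the authors used, which leaves changes within a gene untouched.

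Rows whose levels followed each gene most closely over the 12 libraries were sought by Pearson's r of the log2 values, as a description in which the points share their groups and the day 4 peak. For Bnip3 these were Tpi1, a glycolytic enzyme (r = 0.984), Ddit4 (0.974) and Pfkl, a phosphofructokinase subunit (0.970). Ddit4 had Bnip3, Pfkl (0.961) and Pgm2, a phosphoglucomutase (0.947), and Egln3 had Ddit4 (0.945), Pgm2 (0.944) and P4ha1, a collagen prolyl hydroxylase (0.938). Egln1 was closest to Fam162a, itself a known hypoxia-induced gene (0.964), then to Dmxl2 (0.930) and Fnip1 (0.929). Slc16a3 was closest to Fnip1 and G2e3 (0.934 each) and Laptm4a (0.931). The nearest rows of Slc2a1 were Fut9 (0.974), Spire1 (0.949) and Klhl24 (0.946), and those of Bnip3l were Gm3875 (0.930), Hist1h2ao (0.924) and Eri2 (0.921). Hist1h2ao belongs to a family of near-identical histone genes among which reads can be split. Vegfa was nearest to Eid1 (0.946), Trim13 (0.944) and Fam81a (0.941), which were also lowest at day 6. Pdk1 was nearest to Slc35f5, Klhl9 (0.928 each) and Tes (0.926), and Hif1a to Psme3 (0.943), Phgdh (0.933) and Slc30a7 (0.921).

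Genes around each of the 10 were taken from lists chosen with earlier results of these data known. Of HIF subunits and regulators beyond the members, 12 were tested and at day 4 against the control 0 were called higher and 1 lower, Hsp90ab1, a chaperone of HIF-1α (-0.44 ± 0.14, adjusted p 0.0494), counts near the 6.99% and 7.76% of all rows tested. The third hydroxylase, Egln2, had 22.8 ± 9.88 normalized counts at day 4 against 43.8 ± 20.7 in controls (SD, n = 3 each) and was not called (-0.90 ± 0.35, adjusted p 0.0869), while Egln1 and Egln3 rose. Vhl, the recognition subunit of the ligase that removes HIF-1α, was called lower at day 6, with 25.4 ± 3.94 normalized counts against 48.4 ± 2.94 in controls (-0.91 ± 0.21, adjusted p 0.0115).

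Among 35 other hypoxia-induced genes outside glycolysis 18 were tested, and at day 4 against the control 6 were called higher and 2 lower, against 6.99% and 7.76% of all rows tested, with a median log2 change of 0.81, against -0.01 over all rows. Ppp1r3c and Bhlhe40 were tested only because of their day 4 libraries, and of the other 16 genes 5 were called higher and 2 lower, with a median of 0.64. Plod2, a collagen lysyl hydroxylase, had 156 ± 29.2 normalized counts at day 4 and 27.5 ± 6.02 in controls (2.47 ± 0.20). Ccng2, an atypical cyclin, had 125 ± 18.2 at day 4 and 17.2 ± 0.268 in controls (2.78 ± 0.23). P4ha1 had 165 ± 12.5 at day 4 and 59.8 ± 9.39 in controls (1.46 ± 0.19). Those called lower were Ak4, a mitochondrial adenylate kinase (-0.66 ± 0.19), and Tfrc, the transferrin receptor, with 347 ± 18 at day 4 and 622 ± 9.80 in controls (-0.84 ± 0.12, adjusted p 0.000171). Against the mean of days 2 and 6, 8 of the 18 were called higher at day 4 and 1, Tfrc, lower (-0.41 ± 0.10), against 3.44% and 4.31% of all rows tested. For 8 of the 18 the day 4 libraries lay above all other 9, against 4.29% of rows. Without Ppp1r3c and Bhlhe40 it was 6 of 16 called higher and 6 of 16 above all others. Of the 18, 1 was called higher at day 6 against the control and 3 lower, against 3.07% and 3.15% of all rows tested. The higher one was Plod2 (1.02 ± 0.20). The lower ones were Ak4 (-1.45 ± 0.19), Tfrc (-0.75 ± 0.12) and the histone demethylase Kdm3a (-0.61 ± 0.13).

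**Figure D4:**
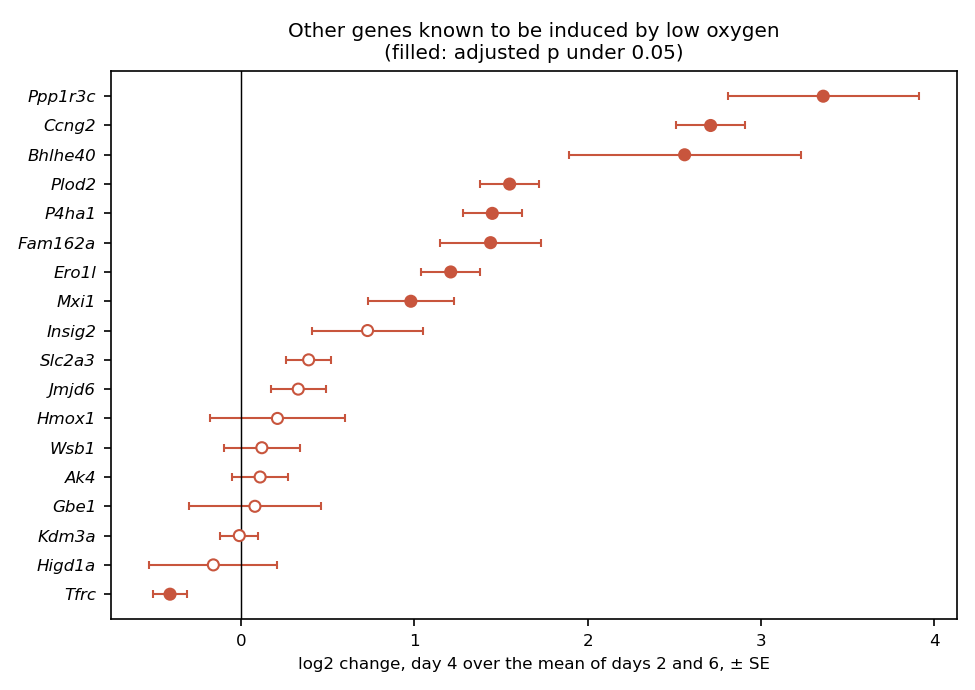
Log2 change from the mean of TUNA shRNA days 2 and 6 to day 4 (x axis, with bars of 1 standard error) for the 18 tested genes of the list of other hypoxia-induced genes (rows); filled points passed the adjusted p threshold of 0.05. Filled points number 8 above 0 and 1 below it, Tfrc; Ppp1r3c and Bhlhe40 passed the filter on low values only through their day 4 libraries.

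Close relatives of 4 of the genes were also tested. At day 4 against the control 6.99% of all rows tested were called higher and 7.76% lower. In the VEGF family the 2 other genes tested were called lower, and of the 3 other monocarboxylate carrier genes 1 was called higher. With so few genes in a list its counts cannot be read against those shares. Of the other 8 tested genes of the pyruvate dehydrogenase complex, its kinases and its phosphatases, 0 were called at day 4 against the control, where Pdk1 rose. Slc2a3 (GLUT3), the 1 other glucose carrier tested, had 5910 ± 428 normalized counts at day 4 and 5010 ± 123 in controls and was not called (0.24 ± 0.15, adjusted p 0.295). It was lower at day 6 than at day 4 (-0.60 ± 0.15, adjusted p 0.0213). Of the other 3 tested monocarboxylate carrier genes Slc16a6 was higher at day 4 than in controls (2.10 ± 0.47, adjusted p 0.00596). Slc16a1 (MCT1) and Bsg, the chaperone of these carriers, differed by -0.07 ± 0.17 and 0.09 ± 0.18. In the VEGF family the lymphangiogenic ligand Vegfc, with 69.9 ± 12.4 normalized counts at day 4 and 144 ± 41.4 in controls (-1.0 ± 0.23, adjusted p 0.00765), and the co-receptor Nrp2 (-1.35 ± 0.42, adjusted p 0.0369) were lower at day 4, opposite in sign to Vegfa, which was not called there. Nrp2 was near the filter, at 3.42 to 4.89 normalized counts at day 4 and 9.2 to 15.5 in controls. At day 2 it already had a mean of 5.07 and was not called (limma, -1.18 ± 0.42, adjusted p 0.247).

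Of 10 other mitophagy genes tested 1 was called higher at day 4 and 2 lower than in controls, against 6.99% and 7.76% of all rows tested. Pink1, a kinase that marks damaged mitochondria, was higher (0.96 ± 0.27, adjusted p 0.0228), and the autophagy receptor Sqstm1 (-0.86 ± 0.15, adjusted p 0.00117) and Gabarapl2, of the ATG8 family (-0.88 ± 0.27, adjusted p 0.0329) were lower. Of 10 other genes around mTORC1 3 were called higher at day 4 and none lower, against the same 6.99% and 7.76%. Txnip, an arrestin-family inhibitor of glucose uptake, had 331 ± 37.7 normalized counts at day 4 and 149 ± 2.73 in controls (1.14 ± 0.15, adjusted p 0.000107). Ddit4l, the paralogue of Ddit4 (1.13 ± 0.22), and Sesn2, a leucine sensor (0.85 ± 0.25, adjusted p 0.0278), were the other two. Both were also called higher at day 6 (0.99 ± 0.22 and 0.87 ± 0.25), where Ddit4 was not (0.18 ± 0.27, adjusted p 0.787). Of the 15 glycolytic enzymes 7 were called higher and 1 lower at day 4 against the control, beside the same shares of all rows, the higher ones including Tpi1 and Pgk1 (1.30 ± 0.15 each) and the lower one being Hk2.

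Fibroblast and endoderm markers were low in all groups and had their highest summed levels at day 4. Among the fibroblast markers this rested on Pdgfra, with a mean of 16.6 normalized counts at day 4 against 6.04 in controls. Thy1 (0.651 against 1.86) and Pdgfrb (4.75 against 5.2) were not above the controls at day 4. Of 10 fibroblast or feeder markers 3 were above 0 in each group, with Col1a1, Col1a2 and Col3a1 at 0 throughout, and their summed level was 8.5 to 11.2 normalized counts in TUNA shRNA libraries of day 2, 18.3 to 27.3 in those of day 4 and 4.5 to 13.3 in those of day 6, against 8.6 to 18.7 in controls. Of 8 endoderm markers 4 were above 0 at day 4, with Afp, Ttr and Apoa1 at 0 throughout, and their summed level was 2.3 to 9.0 in the day 2 libraries, 15.0 to 21.0 in the day 4 and 1.5 to 10.1 in the day 6 libraries, against 4.6 to 8.6 in controls. Of 6 endothelial markers Cdh5 and Emcn were at 0 throughout, and the summed level of the list was 55.9 to 68.4 in the day 2 libraries, 65.9 to 72.8 in the day 4 and 25.7 to 36.8 in the day 6 libraries, against 72.0 to 81.8 in controls. Most of the endothelial sum was Pecam1, with means of 46.5 at day 2, 46.1 at day 4, 20.3 at day 6 and 64.8 in controls. Tek went the other way at day 4, at 22.7 against 8.89 in controls. Whether cells of these types were present was not tested, nor was their part in the changes of the 10 genes.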

How the data were processed

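RNA sequencing of 12 libraries in 4 groups was analysed from 1 table of 37477 gene rows. The values are log2 normalized counts as deposited by the authors; BWA, DESeq and the mm9 build are named in the submitters' processing notes, with no versions or roles. Linear values were obtained by raising 2 to the deposited value, with a deposited 0, which stands for at most 1 normalized count, set to 0. The worth of 1 read in each library was taken from the spacing of low values, of which 43.8% to 56.7% lay within 0.02 of a whole number of reads, so reads are estimates and the count test was only an alternative.

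Rows were kept where 3 or more libraries reached 10 normalized counts, and were tested with limma 3.58.1 (R 4.3.3), with a trend, on log2(normalized count + 1), which understates the change of low genes. All 12 libraries entered 1 fit with 1 coefficient per group, and p-values were adjusted by Benjamini-Hochberg over all 8739 rows in each of 7 comparisons, with a threshold of 0.05. The procedure was also run on simulated data. The rows changed there were above a minimum mean level, so that run does not cover low rows, and no result given here rests on it. Alternatives were other scalings, filters, pseudocounts and thresholds, limma-voom on the estimated reads, fits of only the groups compared, a replicate block, and leaving out each library.

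The genes, lists and comparisons were chosen with earlier results of these data known. All 10 genes are named, with the 3 rows closest in level to each, and from each list at most the 4 genes with the smallest p in a comparison. Gene annotation (GENCODE M21) and promoters (RefSeq) are of GRCm38, and were matched by symbol with no mm9 coordinates used.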

Additional observations from a re-analysis of the deposited data

Results flagged for a closer look

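Bnip3l lay on opposite sides of the control libraries at 2 time points, with all 3 day 4 libraries of TUNA shRNA above and all 3 day 2 libraries below every control library. It had 149 ± 14.8 normalized counts at day 4 and 96.6 ± 11.9 at day 2, against 108 ± 0.487 in controls (SD, n = 3 each). The controls lay unusually close together, at 107 to 108 from about 98.0 to 125.4 reads, so that a small difference suffices to clear them. Of all rows tested 15.5% lay above all controls at day 4, and 10.3% below all controls at day 2. Neither day was called against the control with limma. The log2 change was -0.17 ± 0.19 at day 2 (adjusted p 0.8) and 0.46 ± 0.19 at day 4 (adjusted p 0.119). The log2 difference of day 4 from day 2 was 0.62 ± 0.19 and did not pass the threshold (limma, adjusted p 0.0564).

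Vegfa did the same at later time points, with all 3 day 4 libraries above and all 3 day 6 libraries below every control library. It had 43.3 ± 3.37 normalized counts at day 4 and 3.07 ± 2.79 at day 6, against 22.6 ± 6.69 in controls (SD, n = 3 each). Of all rows tested 15.5% lay above all controls at day 4, and 12.8% below all controls at day 6. At day 4 the log2 change from the control, 0.94 ± 0.50, did not pass the threshold (limma, adjusted p 0.219). The log2 difference of day 6 from day 4 was -3.82 ± 0.50 and passed it (limma, adjusted p 0.000174), with day 6 values that stand for at most about 7 reads a library.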

How the results depend on the processing

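No change that passed the threshold changed sign in any alternative. The count of the 10 genes called stayed at 0 for day 2 against the control in all alternatives. It ran over 7 to 8 for day 4 against the control (6 to 7 with 1 library left out), 2 (2 to 3) for day 6 against the control, 6 to 8 (5 to 6) for day 4 against day 2, 6 to 7 (5 to 6) for day 6 against day 4 and 7 to 8 (6 to 8) for day 4 against the mean of days 2 and 6. Egln3 dropped out of the rows tested whenever a day 4 library was left out, since it then failed the filter. For day 6 against day 2 the count of 1 (Vegfa) became 0 with limma-voom, with only the groups compared and at a threshold of 0.01, and ran from 0 to 1 with 1 library left out. Egln1 at day 6 against day 4 was lost without the first day 6 library (adjusted p 0.058), and Slc2a1 at day 6 against the control was gained without the third (adjusted p 0.0396).

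Over all rows tested the counts called were 84, 1289, 543, 669, 488, 393 and 678 for day 2, day 4 and day 6 against the control, day 4 against day 2, day 6 against day 4, day 6 against day 2 and day 4 against the mean of days 2 and 6. A threshold of 0.01 gave 23, 574, 232, 227, 177, 117 and 211 in the same order. With no filter the first became 52, and with only the groups compared the fifth became 197. With 1 library left out they ran over 18 to 45, 818 to 1287, 298 to 556, 337 to 739, 232 to 455, 167 to 388 and 270 to 694.

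With a replicate block the genes called numbered 0, 7, 2, 6, 6, 1 and 8, as without it. Of 18 pairs of same-numbered libraries 3 had deviations correlated above 0.1 (r from -0.277 to 0.328), and 7 correlated best with their own number, so the numbers were not taken to pair the libraries. Log2 changes near 0, called in no setting given here, changed sign as follows. With limma-voom, Hif1a and Egln1 at day 2 against the control became 0.00 and 0.03, and Slc16a3 at day 6 against day 2 became -0.01. With 1 library left out, changes at day 2 against the control ran over -0.09 to 0.12 for Hif1a, -0.21 to 0.20 for Egln1, -0.00 to 0.34 for Bnip3, -0.02 to 0.12 for Slc2a1 and -0.04 to 0.44 for Slc16a3. At day 6 against the control they ran over -0.02 to 0.48 for Egln1, -0.22 to 0.18 for Bnip3l and -0.03 to 0.47 for Slc16a3. At day 6 against day 2 they ran over -0.04 to 0.30 for Bnip3, -0.05 to 0.34 for Bnip3l, -0.27 to 0.01 for Ddit4 and -0.16 to 0.25 for Slc16a3. Depth limits Egln3 outside day 4 and Vegfa at day 6 to a few reads a library.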

Other observations

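Some hypoxia-linked genes lay below the filter on low values and were not tested; those given here were chosen after their values were seen. P4ha2, a collagen prolyl hydroxylase, had 7.93 to 19.1 normalized counts in the day 4 libraries of TUNA shRNA, against 1.73 to 7.72 in controls. Pfkfb3, which makes an activator of phosphofructokinase, had 2.38 to 13.0 at day 4 against 0 to 3.45 in controls, and Loxl2, a lysyl oxidase, 4.56 to 12.2 against 0 to 6.44, so that both overlapped the controls. Plod1, the relative of Plod2, had 1.14 to 3.59 at day 4 against 4.24 to 12.1 in controls. Epas1, which encodes HIF-2α, had 1.98 ± 1.25 normalized counts at day 4 and 7.90 ± 1.29 in controls (SD, n = 3 each). Epo and Lox were listed at 0 in all 12 libraries. The share of reads in the 3 most abundant rows was 72.7% to 74.5% in TUNA shRNA libraries of day 2, 64.2% to 76.9% in those of day 4 and 60.4% to 69.3% in those of day 6, against 74.0% to 75.5% in controls.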
